A study of Mus musculus with 8 samples.

Results

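This report follows 9 genes of the B cell lineage in sorted tumour macrophages: Cd79a, Cd79b, Ms4a1, Pax5, Blk, Pou2af1, Jchain, Ebf1 and Cr2. They are 9 of 37074 gene names on the array, chosen by name, and every non-control probe that carries one of these names was taken, which gave 15 of 56605 probes. Of the 15, 14 were among the 41179 probes tested, each of which cleared the scanner's background limit on 4 or more arrays, and 11 cleared it on all 8. B cells carry an antigen receptor made of immunoglobulin, whose signal is passed on by the proteins of Cd79a and Cd79b, and they owe their identity to transcription factors such as Ebf1 and Pax5. When B cells turn into plasma cells, they lower Pax5, Ms4a1 and Cr2 and make large amounts of secreted antibody together with the joining chain encoded by Jchain. Macrophages are not B lineage cells, although myeloid cells do use some genes that B cells also use. Some of the 9 genes are known outside the lineage too: Jchain is made by plasmacytoid dendritic cells, Ebf1 by stromal and fat cell precursors and Cr2 by follicular dendritic cells.

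The samples were macrophages taken by flow cytometric sorting from pancreas tumours of female mice aged 8 to 10 weeks, of a strain labelled FvBn and a genotype labelled as not provided, which had been implanted with tumours. They fall into 4 MHCII-high and 4 MHCII-low samples, by the level of major histocompatibility complex class II, the molecules that present peptides to helper T cells. The series' own design names wild-type, KPC and FLT3-CRE/LSL-YFP mice with normal or tumour pancreas, and the labels leave unsaid which of them gave the 8 samples. The labels give no gate other than MHCII and do not mention removal of B cells. Each group carries the label numbers 20435, 20436, 20439 and 20442, whose meaning the labels do not give. No label states that the 4 samples per group are from different animals, so p-values cover the spread among these samples alone, and that spread can be technical. Each sample was hybridised to an array of its own in 1 colour, with 68.5% to 74.4% of the probes above that background limit. All values are log2 processed signals minus the 75th percentile of the same array, so that 0 is the level of that percentile and a step of 1 is a doubling of signal. The general macrophage markers stood well above background, with 12 of 12 genes of the macrophage list at that level on all 8 arrays.

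A probe is a short DNA strand that captures the labelled product of 1 transcript region, so probes of the same gene share that gene and are not separate evidence. The first 30 of 60 bases are given, 5′ to 3′ and from the array files, for the probes that carry the results below. The Jchain and Pou2af1 probes are shown because they alone among the 15 passed the test, and the Ms4a1, Pax5 and Ebf1 probes because probes of these genes gave different answers.
Jchain A_51_P150710: ctgtactagtctttctcttaacctctcact
Pou2af1 A_51_P183581: gtcttggctgcaggcatccaaacagatttc
Ms4a1 A_55_P2802151: cagaaatgtaatgggttcccagatctcaaa
Ms4a1 A_66_P120649: ccgctatgcctggagaggatggggaggtgg
Pax5 A_66_P128859: tactccatcagtggcatcctgggcatcacg
Pax5 A_52_P429826: atgtaattacagcagtgccaatttgccaaa
Ebf1 A_55_P2827048: tttaaaaattttgcttttcagcccgccttg
Ebf1 A_55_P2805845: caagactccatgttttaatttatgttttta
Ebf1 A_55_P2734622: tggatgccttaacaatgcaaatcatatcca
On mm9, the build of the array files, the Jchain probe lies at chr5:88949919-88949978 on the minus strand and the Pou2af1 probe at chr9:51048108-51048167 on the plus strand. The Ms4a1 probes lie on chromosome 19, at chr19:11325409-11325468 for A_55_P2802151 and chr19:11324334-11324393 for A_66_P120649. The Pax5 probes lie far apart on chromosome 4, at chr4:44692322-44692381 for A_66_P128859 and chr4:44537936-44537995 for A_52_P429826. Of the Ebf1 probes, A_55_P2827048 lies at chr11:44431517-44431576, while A_55_P2805845 at chr11:44818606-44818665 and A_55_P2734622 at chr11:44820424-44820483 lie near each other. All 60 bases of A_55_P2827048 were found in the RefSeq promoter table of GRCm38.p6, from 85 to 26 bases before a listed start of Ebf1. No exon or UTR annotation of mm9 was used here.

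The members leaned toward MHCII-high, and 2 of them passed the test. Jchain was 7.68-fold higher and Pou2af1 3.27-fold higher in MHCII-high cells, and 0 probes were lower, with limma and an adjusted p under 0.05. Among all 41179 probes tested, 5.23% were called, 2.8% higher and 2.43% lower. With an unadjusted p under 0.05 there were 6 of the 14 member probes, all of them higher in MHCII-high, against 11.0% of all probes higher at that cut. The mean was higher in MHCII-high for 13 of the 14 probes tested, against 50.7% of all probes. The 4 MHCII-high arrays stood above all 4 MHCII-low arrays for 6 of the 14 probes, from 6 different genes, against 7.69% of all probes, and the reverse held for 0, against 7.12%. The median log2 difference, MHCII-high minus MHCII-low, was 0.71 over the 14 probes and 0.0066 over all probes tested. In RNA of a sorted population, fewer cells of a type and less RNA per cell cannot be told apart.

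**Figure D1:**
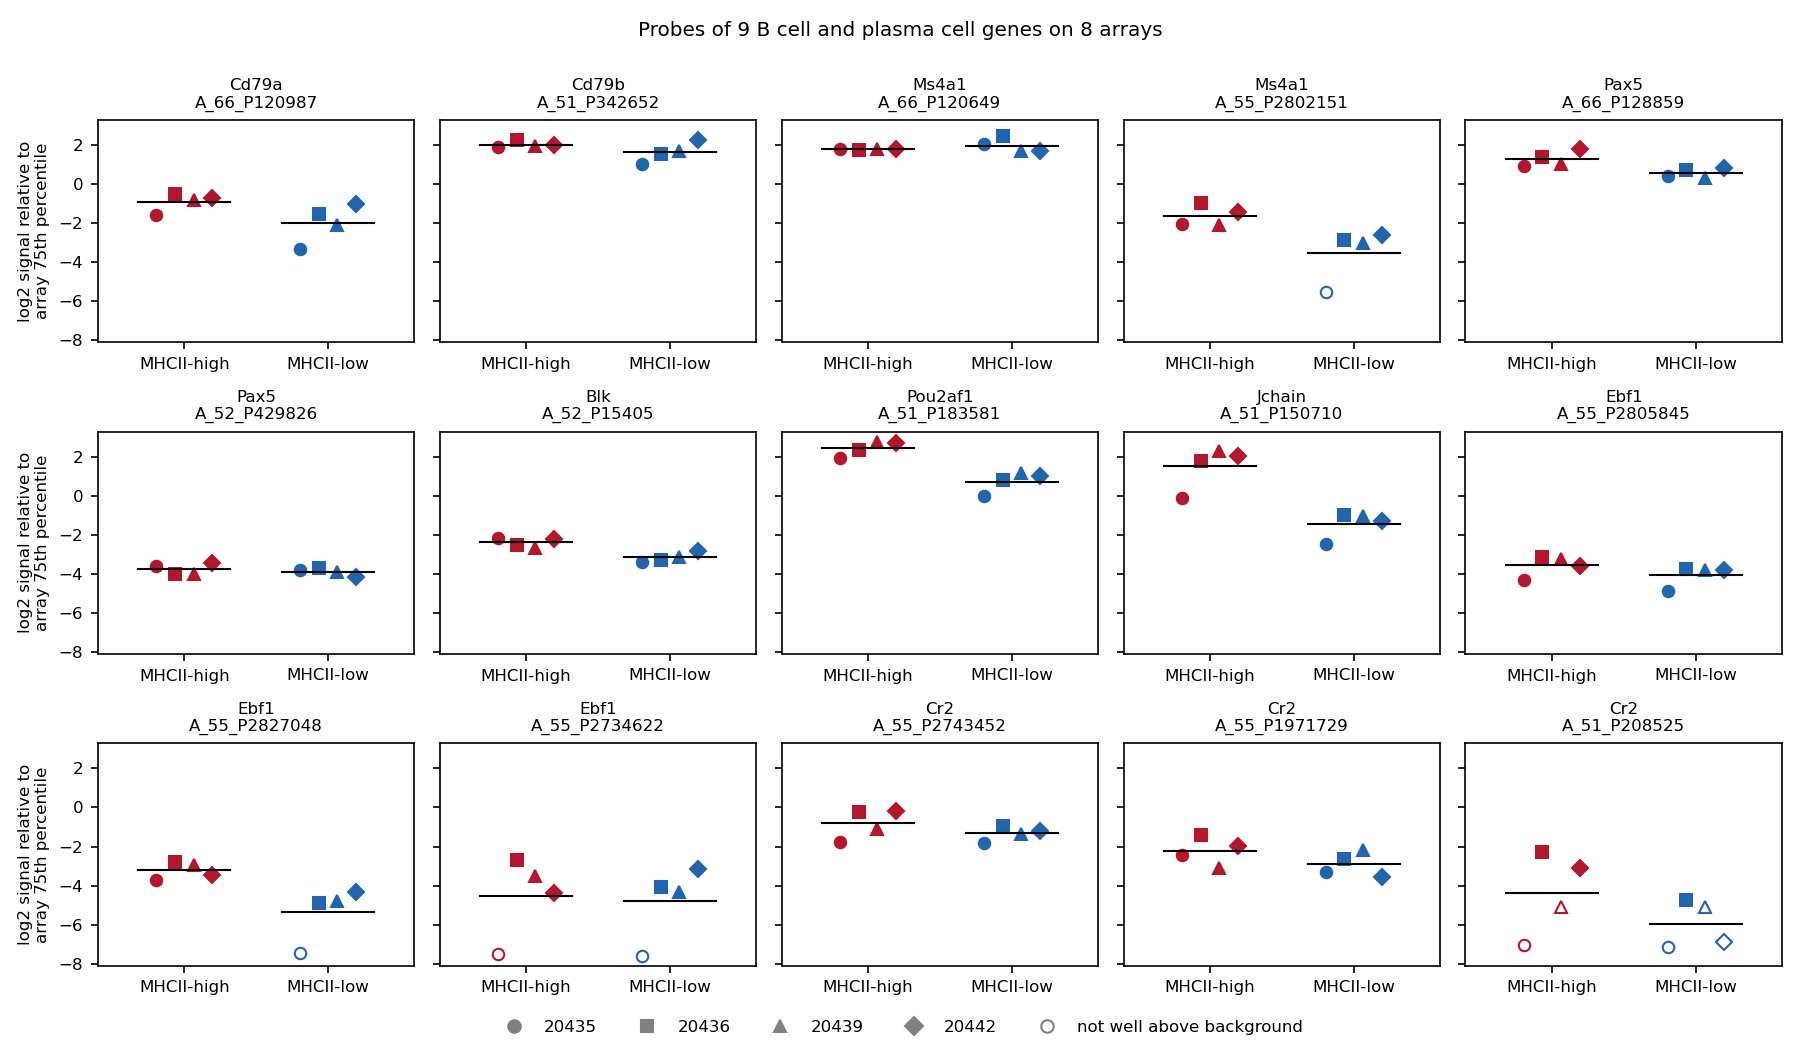
Log2 signal relative to the 75th percentile of the array (vertical axis) for each of the 15 probes, with 1 point per array, shaped by label number, a line at the group mean and open points for arrays not well above background. The groups separate for Jchain and Pou2af1, which share no values between MHCII-high (red) and MHCII-low (blue), while Cd79b and the Ms4a1 probe A_66_P120649 overlap.

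Jchain links antibody monomers into the secreted polymers of IgM and IgA and is a classical plasma cell transcript. The Jchain probe read -0.14, 1.78, 2.31 and 2.03 on the MHCII-high arrays 20435, 20436, 20439 and 20442. It read -2.46, -0.99, -1.03 and -1.31 on the MHCII-low arrays of the same numbers. The groups did not overlap, and array 20435 was the lowest of the 4 in each group. The means were 1.49 ± 1.11 (SD, n = 4) and -1.45 ± 0.69 (SD, n = 4), a log2 difference of 2.94 or 7.68-fold (95% interval 3.15 to 18.8, adjusted p = 0.0242 with limma).

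Pou2af1 encodes a coactivator that binds the octamer factors on immunoglobulin promoters and is needed for germinal centres. Its probe read 1.95, 2.32, 2.76 and 2.71 on the MHCII-high arrays in the same order. On the MHCII-low arrays it read -0.03, 0.78, 1.14 and 1.01. Here too every MHCII-high array stood above every MHCII-low array, with array 20435 the lowest of each group. The log2 difference was 1.71, or 3.27-fold (95% interval 2.04 to 5.24, adjusted p = 0.0174 with limma).

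Both calls held within the slide rows in direction but not in the test. The 8 arrays lay in 2 rows of 1 slide, with 1 MHCII-high and 3 MHCII-low arrays in row 1 and 3 MHCII-high and 1 MHCII-low arrays in row 2, so that each value within a row rests on a single array of one group. Within rows 1 and 2 the log2 difference of Jchain was 3.27 and 2.71, and that of Pou2af1 was 1.69 and 1.46. Once the row entered the fit as a block, the adjusted p was 0.0844 for Jchain and 0.079 for Pou2af1, and 0 member probes passed. An exact two-sided permutation test over the 70 assignments of the 8 arrays gave p = 0.0286 for each, the smallest that it can give. Any probe whose groups do not overlap gets this value, so it only restates the lack of overlap. The test takes no account of the slide rows.

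Cd79a and Cd79b form the signalling pair of the B cell receptor and are required on every mature B cell, and they did not pass the test. The Cd79a probe, which covers 258 bases of chromosome 7 with its 60 bases, read -1.57, -0.50, -0.83 and -0.71 on the MHCII-high arrays. On the MHCII-low arrays it read -3.33, -1.55, -2.08 and -1.0. The groups overlapped, with MHCII-low 20442 above MHCII-high 20435 and MHCII-low 20435 far below the rest. The log2 difference was 1.09 (95% interval 0.00 to 2.18, adjusted p = 0.247), and within the slide rows it was 1.82 and -0.03.

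Cd79b read 1.89, 2.25, 1.94 and 1.99 on the MHCII-high arrays and 1.03, 1.51, 1.68 and 2.27 on the MHCII-low arrays. The highest of its 8 values was on an MHCII-low array, 20442, and the lowest on MHCII-low 20435. The log2 difference was 0.40 (95% interval -0.19 to 0.98, adjusted p = 0.436), and within the slide rows it was 0.84 and -0.33.

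Blk, a kinase of the Src family that acts just below the B cell receptor, was small in its difference but even among arrays. Its probe read -2.17, -2.51, -2.69 and -2.19 on the MHCII-high arrays and -3.40, -3.29, -3.12 and -2.80 on the MHCII-low arrays. The groups did not overlap, with a narrow gap between MHCII-high 20439 and MHCII-low 20442. The log2 difference was 0.76, or 1.7-fold (95% interval 1.25 to 2.31), and missed the threshold at an adjusted p of 0.0622. It passed, at 0.0408, when only probes well above background on all 8 arrays were tested. Under the other 16 alternatives Blk missed the threshold, and its adjusted p rose to 0.203 once slide rows were blocked.

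Ms4a1 encodes CD20, the surface protein by which B cells are depleted in the clinic, and its probes did not agree. Probe A_55_P2802151, assigned on the array to the RefSeq transcript, read -2.04, -0.98, -2.08 and -1.44 on the MHCII-high arrays. It read -5.52, -2.86, -3.01 and -2.63 on the MHCII-low arrays, where 20435 was not well above background. The groups did not overlap, and the low value of MHCII-low 20435 widened the difference. That difference was 1.87 on the log2 scale (95% interval 0.45 to 3.30, adjusted p = 0.134). It passed at 0.0274 with another background correction, normexp, where it was 1.15. Under its other 14 alternatives this probe missed the threshold, and its adjusted p rose to 0.301 once slide rows were blocked. The other probe, A_66_P120649, which the array assigns to an Ensembl transcript, read 1.78, 1.73, 1.81 and 1.77 on the MHCII-high arrays and 2.06, 2.43, 1.68 and 1.67 on the MHCII-low arrays. Its MHCII-high values lay within a few hundredths of each other and inside the MHCII-low range. It was the only tested member probe with a lower mean in MHCII-high, by -0.18 (95% interval -0.63 to 0.26, adjusted p = 0.645).

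Cr2, the complement receptor that lowers the threshold of B cell activation, has 3 probes on chromosome 1, and none passed. Probe A_55_P2743452 read -1.75, -0.23, -1.09 and -0.19 on the MHCII-high arrays and -1.80, -0.95, -1.35 and -1.20 on the MHCII-low arrays, a log2 difference of 0.51 (adjusted p = 0.485). Probe A_55_P1971729 read -2.42, -1.43, -3.07 and -1.96 against -3.29, -2.62, -2.19 and -3.55, a difference of 0.69 (adjusted p = 0.394). The groups overlapped for both. The third Cr2 probe, A_51_P208525, was well above background on 3 of the 8 arrays, MHCII-high 20436 and 20442 and MHCII-low 20436, and was not tested. Its values were -7.04, -2.25, -5.11 and -3.07 on the MHCII-high arrays and -7.11, -4.75, -5.11 and -6.87 on the MHCII-low arrays. For all 3 probes the highest value of the 8 was on an MHCII-high array, either 20436 or 20442.

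Pax5 holds cells in the B lineage and is switched off in plasma cells. Probe A_66_P128859 read 0.90, 1.40, 1.03 and 1.80 on the MHCII-high arrays and 0.43, 0.71, 0.29 and 0.80 on the MHCII-low arrays. The groups did not overlap, by the margin between MHCII-high 20435 and MHCII-low 20442, and the log2 difference was 0.73 (95% interval 0.20 to 1.25, adjusted p = 0.118). Probe A_52_P429826 read -3.61, -3.98, -4.00 and -3.46 against -3.79, -3.70, -3.90 and -4.16. Those values were interleaved, and the log2 difference was 0.12 (95% interval -0.30 to 0.55, adjusted p = 0.754).

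Ebf1, which opens the B cell programme together with Pax5, gave 3 different readings. Probe A_55_P2827048, the one upstream of a RefSeq start, read -3.70, -2.79, -2.92 and -3.43 on the MHCII-high arrays and -7.46, -4.87, -4.79 and -4.32 on the MHCII-low arrays. The groups did not overlap, and MHCII-low 20435 was not well above background. The log2 difference was 2.15 (95% interval 0.69 to 3.61, adjusted p = 0.0988). Without MHCII-low 20435 it was 1.45 with an adjusted p of 0.0421. Under its other 14 alternatives this probe missed the threshold, and its adjusted p rose to 0.267 once slide rows were blocked. Probe A_55_P2805845 read -4.33, -3.13, -3.22 and -3.57 against -4.86, -3.74, -3.81 and -3.82, with a difference of 0.49 (adjusted p = 0.47). Its groups overlapped through MHCII-high 20435 alone, which fell below 3 of the MHCII-low arrays. Probe A_55_P2734622 read -7.50, -2.67, -3.50 and -4.35 against -7.57, -4.04, -4.32 and -3.12, and on both 20435 arrays it was not well above background. Its difference of 0.26 (95% interval -2.52 to 3.04, adjusted p = 0.932) had no steady direction, and was -0.68 without MHCII-low 20435.

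**Figure D2:**
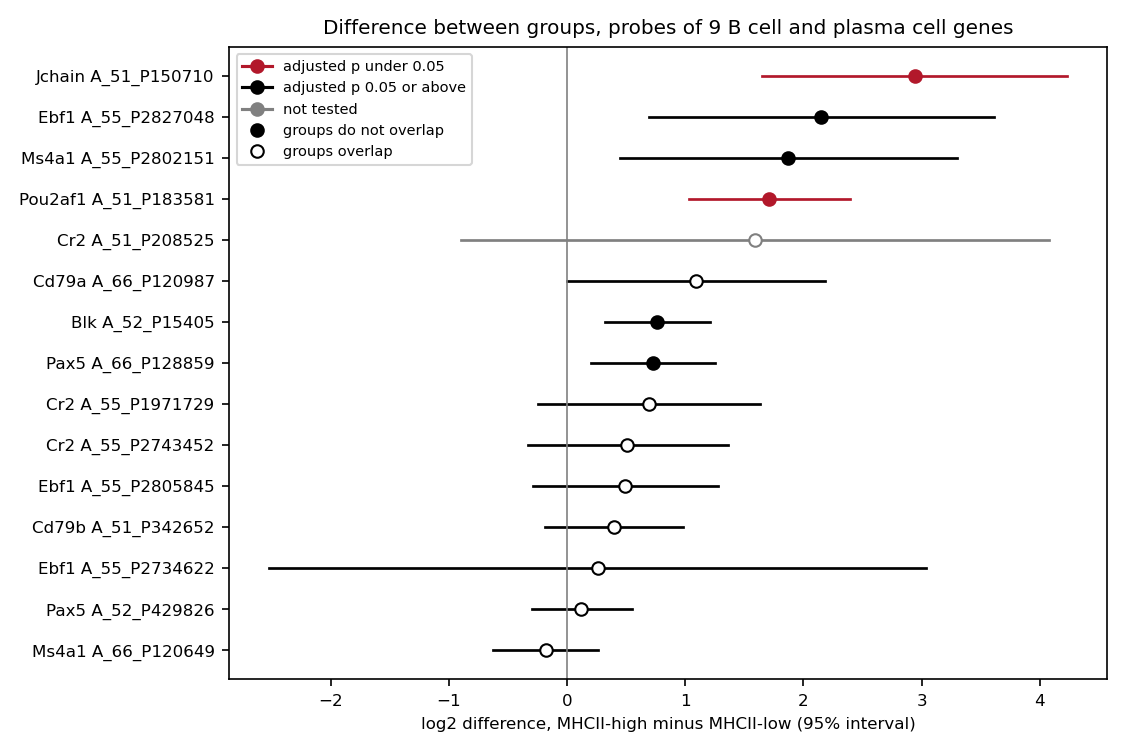
Log2 difference, MHCII-high minus MHCII-low, with its 95% interval (horizontal axis) for each of the 15 probes, in order of size. Jchain at 2.94 and Pou2af1 at 1.71 passed the test (red), filled points mark groups that do not overlap, and the Ms4a1 probe A_66_P120649 at -0.18 is the only probe below 0.

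Of the 9 genes, 4 have several probes. In Ms4a1, Pax5 and Ebf1 a probe whose groups did not overlap stood beside a probe whose groups did, whereas the Cr2 probes all overlapped. Every probe of a gene had a higher mean in MHCII-high for 8 of the 9 genes, Ms4a1 being the exception. Within slide row 1 the difference was above 0 for 12 of 14 tested probes, with a median of 1.21, and within row 2 for 11 of 14, with a median of 0.45.

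The promoters of the 2 called genes are shown because octamer, Ebf and plasma cell factor sites are the known inputs of B lineage promoters. Each is the 250 bases before a RefSeq start on GRCm38.p6, chr5:88527898-88528147 on the minus strand for Jchain and chr9:51213440-51213689 on the plus strand for Pou2af1, with a motif match in capitals.
Jchain promoter: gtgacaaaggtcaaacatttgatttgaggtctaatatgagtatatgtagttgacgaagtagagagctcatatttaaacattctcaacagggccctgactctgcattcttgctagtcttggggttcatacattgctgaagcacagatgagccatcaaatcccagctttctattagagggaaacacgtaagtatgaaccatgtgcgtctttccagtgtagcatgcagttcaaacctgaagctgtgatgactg
Pou2af1 promoter: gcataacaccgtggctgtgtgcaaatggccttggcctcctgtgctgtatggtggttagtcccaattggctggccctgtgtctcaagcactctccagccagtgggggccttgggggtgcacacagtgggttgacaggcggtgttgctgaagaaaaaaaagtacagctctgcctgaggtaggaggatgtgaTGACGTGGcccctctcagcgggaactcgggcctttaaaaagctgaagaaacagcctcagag
Both strands were searched for the octamer ATGCAAAT, the Ebf site core CCCNNGGG, the ETS-IRF composite GGAANNGAA and the unfolded protein response element TGACGTGG, none of which contains another. Of 32851 mouse windows of the same 250 bases, 1.6%, 11.8%, 6.99% and 0.563% held them. Among 7 windows of 6 member genes, 1 held a match, the TGACGTGG that starts 61 bases before the Pou2af1 start, while the Jchain window held none of the 4. A match is a description of letters, and promoters of Cd79b, Ms4a1 and Blk were not analysed here.

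The members moved together across arrays in 1 respect that the groups do not describe. MHCII-low 20435 was the lowest of the 8 arrays for 11 of the 15 probes, and so the lowest of its own group for 11, whereas it was the lowest of its group for 17.1% of all probes tested. MHCII-high 20435 was the lowest of its group for 10 of the 15, against 25.0% of all probes tested. These counts include values not well above background. Among the 11 probes well above background on all 8 arrays, each 20435 array was the lowest of its group for 7. At the other end, MHCII-high 20436 was the highest of the 8 arrays for 7 probes and MHCII-high 20442 for 3. As a deviation from the mean of the 8 arrays, the median of the 15 probes was -0.02, 0.85, 0.12 and 0.74 on the MHCII-high arrays and -1.05, -0.10, -0.28 and -0.12 on the MHCII-low arrays. MHCII-high 20435 therefore lay nearer to 3 of the MHCII-low arrays than to MHCII-high 20436 on this measure. The probes share arrays and scaling, so these counts are a description. The summed linear signal of the brightest probe of each gene, in units of the array's 75th percentile, ran from 14.7 to 23.3 in MHCII-high and from 9.22 to 13.3 in MHCII-low.

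**Figure D3:**
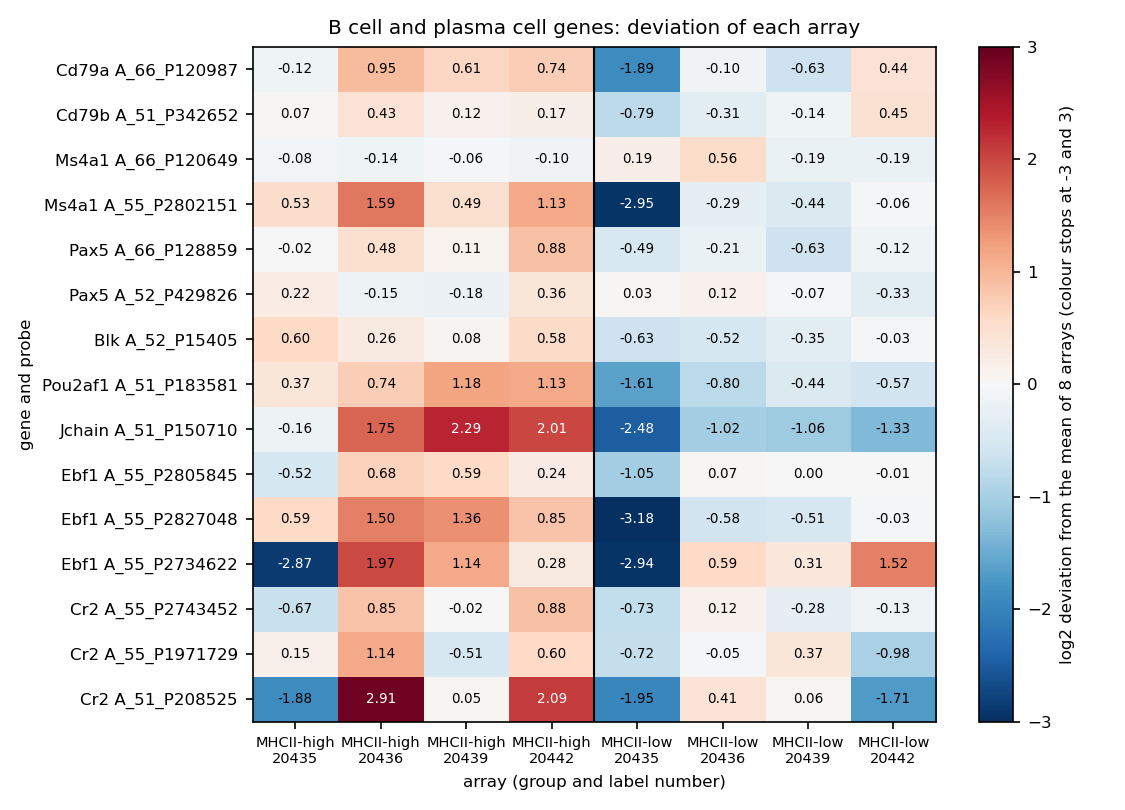
Log2 deviation of each array (columns) from the mean of the 8 arrays for each of the 15 probes (rows), in red above and blue below that mean. The column of MHCII-low 20435 is the bluest, down to -3.18 for an Ebf1 probe, and the MHCII-high 20435 column is mixed, with -2.87 for another Ebf1 probe and -1.88 for the Cr2 probe A_51_P208525, both not well above background there, and 0.60 for Blk.

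Leaving out single arrays changed the calls more than the directions. Without MHCII-low 20435, the mean was higher in MHCII-high for 12 of 14 probes, the groups did not overlap for 6, against 9.91% of all probes, and the median difference was 0.60. Without MHCII-high 20435, 13 were higher, 8 did not overlap, against 11.1% of all probes, and the median was 0.84. Jchain kept its call in 1 of 8 such fits, without MHCII-high 20435 (adjusted p = 0.006), and in the others its adjusted p was 0.0508 to 0.0703 at log2 differences of 2.60 to 3.09. Pou2af1 kept its call in 6 of the 8 and lost it without MHCII-high 20439 (0.0567) and without MHCII-high 20442 (0.051). Both genes kept their call under the other settings tried, apart from the slide row block, at adjusted p from 0.0036 to 0.0399 for Jchain and 0.00137 to 0.0271 for Pou2af1.

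**Figure D4:**
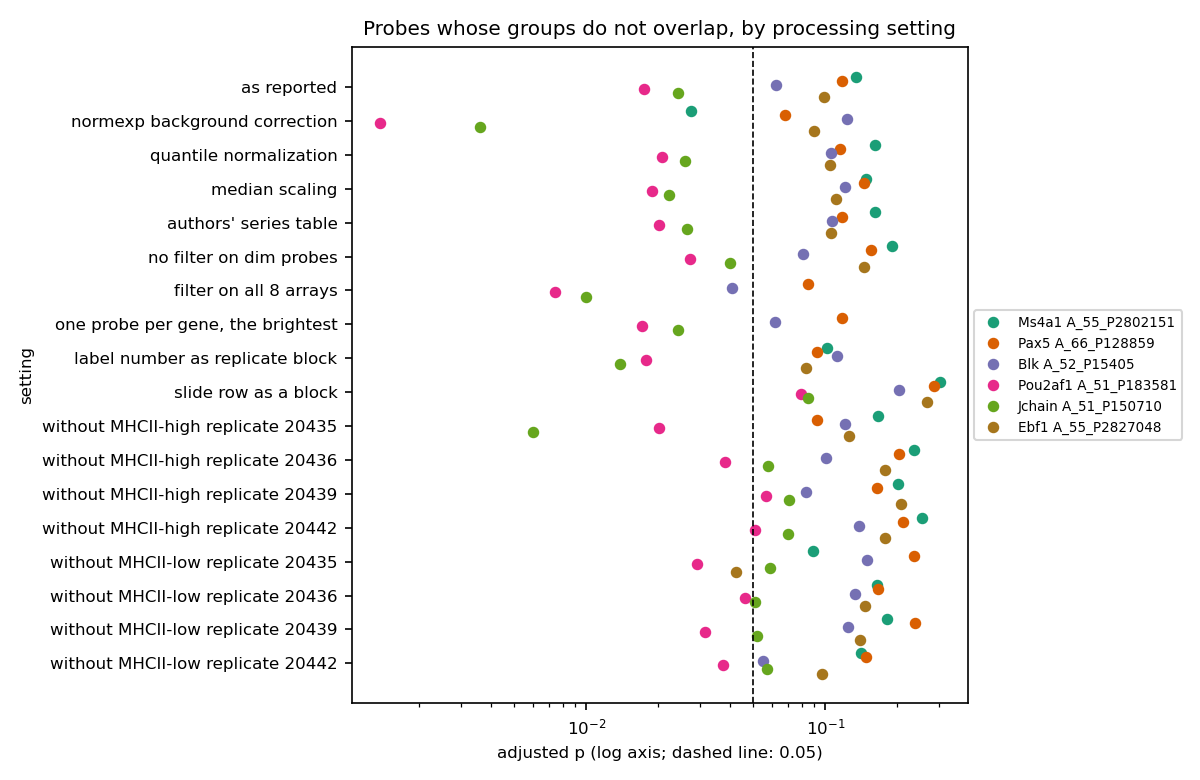
Adjusted p on a log axis (horizontal) for the 6 probes whose groups do not overlap, under each processing setting (rows), with a dashed line at 0.05. Pou2af1 and Jchain lie left of the line for the reported setting, at 0.0174 and 0.0242, and right of it once the slide row is a block, at 0.079 and 0.0844.

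Of 18 other mature B cell genes in a textbook list, 16 were measured, and those called went in the same direction as the members. This list and those below were chosen with earlier results of these data known. Of 32 tested probes 7 were higher in MHCII-high, from 6 genes, and 0 lower, and the median log2 difference was 0.76. The other 10 genes had no call, and some of their probes had a lower mean in MHCII-high. The summed signal of the list overlapped, at 42.5 to 52.2 in MHCII-high against 37.1 to 52.2 in MHCII-low. Over all probes tested, 2.8% were called higher and 2.43% lower, and these shares apply to the lists below too. Siglecg, an inhibitory receptor of B1 cells, was 5.81-fold higher (95% interval 4.02 to 8.41, adjusted p = 0.00172), and its other probe 4.11-fold (adjusted p = 0.0294). Fcrla, an intracellular Fc receptor-like protein of germinal centre B cells, was higher (adjusted p = 0.00898) and was well above background on 4 MHCII-high arrays and 1 MHCII-low array. Its log2 difference of 3.46 is therefore set largely against background signal, and with normexp it was 1.04 (adjusted p = 0.00969). Spib, an ETS factor of B cells and plasmacytoid dendritic cells, had a log2 difference of 1.54 (adjusted p = 0.0248), and 1 of 3 probes of Tnfrsf13b, the receptor TACI, had 1.01 (adjusted p = 0.0207). Cd22, an inhibitory B cell lectin, was called with 1 of its 4 probes, at 0.88 (adjusted p = 0.0437), and its brightest probe differed by -0.12 (adjusted p = 0.774). With slide rows blocked 2 of these probes passed, and without single arrays 2 to 7: 2 each without MHCII-high 20439 and MHCII-low 20436, 3 each without MHCII-high 20442, MHCII-low 20435 and MHCII-low 20439, and 4 without MHCII-high 20436. The called probe of Cd22 lost its call in 8 of the 8 fits without an array, and those of Spib and Tnfrsf13b and the second of Siglecg in 5, 3 and 6. With slide rows blocked their adjusted p was 0.155, 0.0717, 0.0886 and 0.114 in that order.

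Plasma cell genes were divided. Of 25 tested probes from 16 of the 23 genes listed, 4 were higher, from 3 genes, and 1 was lower, with a median log2 difference of 0.34. The 3 genes were Irf4, a factor of plasma cells that dendritic cells also use, with log2 differences of 2.28 and 2.45 (adjusted p = 0.00394 and 0.00594), Mzb1, a chaperone of antibody-secreting cells, with 2.72 (adjusted p = 0.00835), and Slamf7, a surface receptor of plasma cells and other leukocytes, with 2.19 (adjusted p = 0.00725). Mzb1 read -2.57, -1.19, -0.85 and -1.52 on the MHCII-high arrays and -4.70, -4.20, -3.69 and -4.44 on the MHCII-low arrays, so the groups lay well apart, again with 20435 the lowest of each group. Fkbp11, a folding enzyme of the secretory pathway, was lower in MHCII-high by -1.64 (adjusted p = 0.0126, and 0.0556 with slide rows blocked). The defining plasma cell factors and surface marker did not pass: Prdm1 differed by 0.65 (adjusted p = 0.0702), the brightest Xbp1 probe by 0.12 (adjusted p = 0.71) and the brightest Sdc1 probe by 0.04 (adjusted p = 0.954). Of the Sdc1 and Xbp1 probes, 3 each, 0 passed. The remaining Xbp1 probes each differed by 0.34 (adjusted p = 0.257 and 0.253 with limma). The remaining Sdc1 probes differed by 0.77 and 0.12 (adjusted p = 0.125 and 0.885). For Prdm1, these Xbp1 probes and the Sdc1 probe at 0.77, every MHCII-high array stood above every MHCII-low array, as for 7.69% of all probes. Prdm1 passed under 1 of its 17 alternatives, at an adjusted p of 0.0166.

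B cell genes that myeloid cells also express stood at a median of 0.06, with 0 of 23 probes higher and 2 lower, both of Cd37, a tetraspanin, at -0.92 (adjusted p = 0.0165) and -1.31 (adjusted p = 0.00849). In the early B cell list, 7 of 9 genes were measured above the filter, 3 of 10 probes were higher and 0 lower, and the median was 0.15. These were 2 probes of Bcl11a, a factor of lymphoid progenitors and dendritic cells, and 1 of Il7r, the receptor of interleukin 7. Il7r is named because the count is small and was chosen after its value was seen. Bcl11a probes A_55_P1958270 and A_55_P2485639 were tested too and not called. Their log2 differences were -0.30 to 0.34 and -0.05 to 0.28 over the alternatives. One of the called Bcl11a probes was well above background on 0 MHCII-low arrays, so it passed the filter through MHCII-high arrays alone. Its call is therefore no separate support. This probe was at least 4.78-fold higher in MHCII-high, a bound set against the lowest signal well above background on the MHCII-low arrays. The other called Bcl11a probe was well above background on 2 of the 4 MHCII-low arrays, so its log2 difference of 3.50 (adjusted p = 0.0275) is set partly against background signal. With normexp it was 1.47, and the call was lost in 6 of the 8 fits without an array. The Il7r probe differed by 1.17 (adjusted p = 0.0319). The list had 1 called probe in each fit without any one of the 4 MHCII-high arrays, MHCII-low 20435 or MHCII-low 20436. Rag1, a defining enzyme of receptor rearrangement, was not well above background on any array.

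Immunoglobulin probes, taken from the array by name after the lists had been set, numbered 11, of which 9 were tested. Of these 2 were higher and 0 lower. A probe that the array names Igh-VJ558, after a heavy chain variable family, differed by 3.32 (adjusted p = 0.0115). Igkv4-72, a kappa variable segment, differed by 2.51 (adjusted p = 0.0489). Other probes named Igh-VJ558 were not called, at 0.22 and 1.17 (adjusted p = 0.516 and 0.0684 with limma). The mean was higher in MHCII-high for 7 of the 9, and differences ran from -0.42 to 3.32. Ighg3, a heavy chain constant gene, read 2.12, 2.43, 0.84 and 2.25 on the MHCII-high arrays and 2.36, 3.45, 1.14 and 1.08 on the MHCII-low arrays, with a difference of -0.10 (adjusted p = 0.946). Without single arrays the Igkv4-72 call was lost in 7 of 8 fits, at adjusted p up to 0.129. Variable segments are near copies of one another, so a probe can take up products of several. On mm9 the called Igh-VJ558 probe lies at chr12:114498348-114498407. That is nearer to the Ighg3 probe at chr12:114596396-114597927 than to the Ighv1-33 probe at chr12:117247846-117247905. Whether it reads a variable or a constant segment was not checked.

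The genes whose course over the 8 arrays was nearest to that of Jchain were Ppp1r14a, H2-Ob and Clnk. Their root-mean-square distances from Jchain, after centring each probe on its own mean, were 0.34, 0.36 and 0.40 among 32297 probes with a RefSeq symbol, where Jchain itself had an SD of 1.79. Nearest to Pou2af1, whose SD was 1.01, were Lrrc1 at 0.13, Gm8672 at 0.16 and Zbtb46 at 0.17. These distances describe 8 arrays in 2 groups, and any probe with a group difference of the same size comes close.

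Markers of other cells moved in the same comparison, and their part in the members' values was not tested. Conventional dendritic cell genes were higher with 12 of 21 probes, from 8 of 11 genes, and 0 lower, at a median of 2.72, with Dpp4 at 3.40, Cd209a at 3.06 and Batf3 at 1.75 (adjusted p = 0.000611, 0.00139 and 0.00197). The summed signal of that list ran from 33.3 to 53.3 in MHCII-high and from 18.7 to 26.3 in MHCII-low. Its median deviation was 0.81, 1.59, 1.89 and 1.87 on the MHCII-high arrays, where 20435 was the lowest, and -1.59, -1.11, -1.01 and -1.68 on the MHCII-low arrays, where 20442 was the lowest. Plasmacytoid dendritic cell genes showed 0 of 19 probes higher and 1 lower, Cox6a2 at -0.83 (adjusted p = 0.0438), with a summed signal of 40.4 to 47.0 against 42.7 to 49.1.

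T cell genes had 0 of 26 probes called in either direction, a median of -0.16 and a summed signal of 15.7 to 21.1 against 18.6 to 34.5. Neutrophil genes had 0 of 8, at 6.01 to 15.1 against 9.34 to 15.4, fibroblast genes 0 of 11, at 8.13 to 58.8 against 26.0 to 68.7, and endothelial genes 0 of 7, at 2.71 to 3.18 against 2.18 to 2.87, with Tek not well above background on any array. Natural killer cell genes were higher with 3 of 9 probes, at a summed signal of 6.35 to 10.8 against 4.73 to 13.4. These were 2 probes of Klrk1 and 1 of Klrb1c, and Gzmb was not well above background on any array. Klrk1 probe A_66_P120419 and the called Klrb1c probe were not well above background on all 8 arrays. Their log2 differences ran from 2.39 to 6.28 and from 0.47 to 1.49 over the alternatives. Mast cell and basophil genes were higher with 1 of 4, Fcer1a at 1.68 (adjusted p = 0.0183), while Ms4a2 was not well above background on any array, and their summed signal was 0.314 to 3.27 against 0.403 to 1.22. Epithelial and acinar genes were higher with 1 of 15, Cdh1 at 1.73 (adjusted p = 0.0328), at 7.41 to 39.2 against 21.4 to 30.6. Macrophage genes were lower in MHCII-high with 3 of 20 probes, 2 of them of Adgre1, a surface receptor that marks mouse macrophages, at -1.69 and -1.36, and 1 of Itgam at -0.79 (adjusted p = 0.00474, 0.00394 and 0.0306), and 0 were higher, at a summed signal of 246 to 335 against 317 to 418. Of the calls in these lists, those of Cox6a2, Cdh1, Itgam and Fcer1a were lost in 8, 7, 6 and 2 of the 8 fits without an array.

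**Figure D5:**
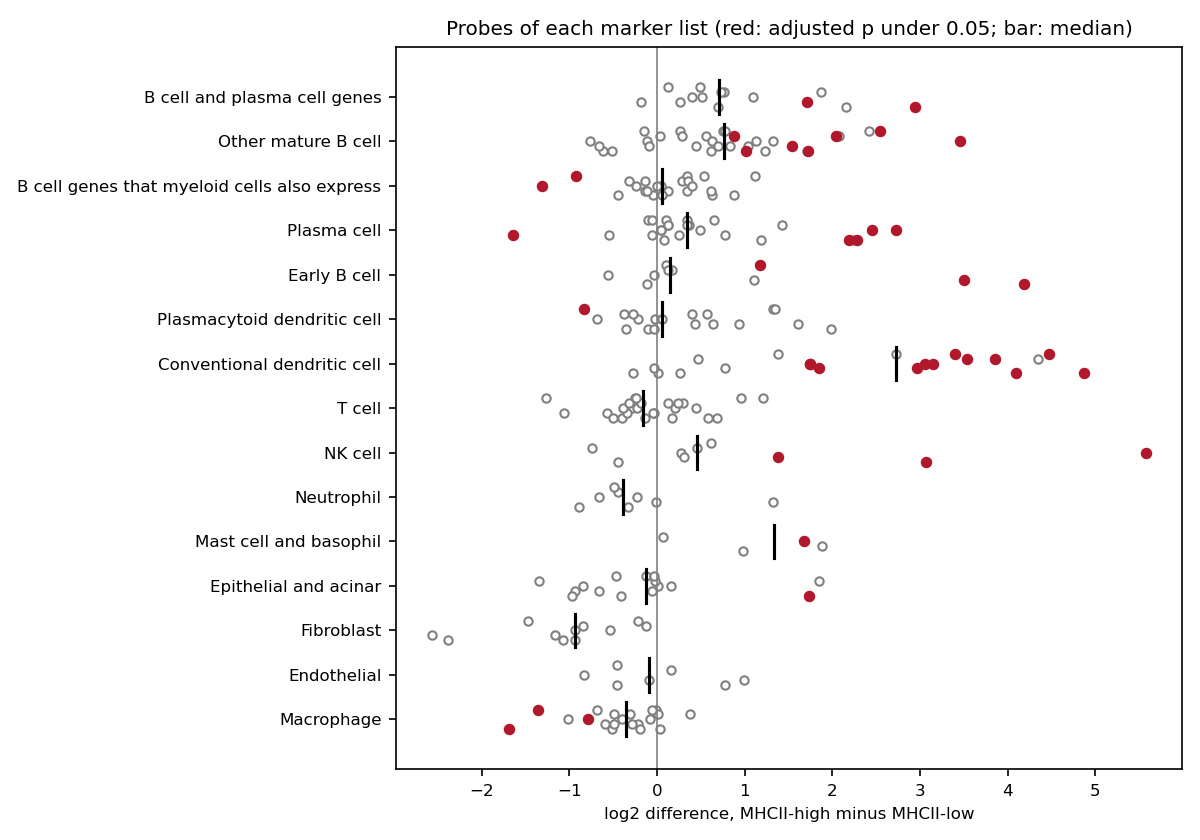
Log2 difference, MHCII-high minus MHCII-low (horizontal axis), of each tested probe of the 9 members and of 14 other marker lists (rows), with a bar at the median and red points for an adjusted p under 0.05. The medians are 0.71 for the members, 0.76 for other mature B cell genes, 0.34 for plasma cell genes, 0.06 for plasmacytoid dendritic cell genes and 2.72 for conventional dendritic cell genes.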

How the data were processed

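RNA from 8 sorted macrophage samples was amplified with the Sigma-WTA2 kit, labelled with Cy5 and hybridised to Agilent mouse arrays, per the labels' protocols. Per the file headers, spot intensity in 1 colour is what the deposited scanner files hold, read out with version 11.5.1.1 of Agilent Feature Extraction. Their processed signal was background-subtracted by that software, per the file headers. The deposited series table holds log2 values whose making is not given in the sources used here. Its array medians were 9.38137 to 9.38149 and its values followed a quantile normalization of the processed signals in scale and direction (r of 0.99999 or more across probes), without centring of genes. The 8 arrays shared a slide and a scan time.

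After 3671 control spots and outlier spots (67 to 160 per array) were left out, log2 processed signals were scaled to each array's 75th percentile and spots of a probe were averaged. No spot was saturated. Probes well above background numbered 38755 to 42086 of 56605 per array, and precision is limited by the number of arrays. Groups were compared per probe with limma 3.58.1 in R 4.3.3 (lmFit, eBayes, two-sided), after checks on simulated data, with Benjamini-Hochberg adjustment over 41179 probes, a threshold of 0.05 and no covariates. Alternatives were normexp (offset 50), quantile and median scaling, the series table, other filters, 1 probe per gene, the label number or slide row as a block, and leaving out each array. The lists outside the members were named by rule: up to 10 called B lineage genes, 7 others of that lineage whatever their value, and at most 3 per other list. One gene that this rule names is not reported here. Genes most like a member were sought for the 2 members with the largest SD over arrays, among brightest probes of a gene that were well above background on all 8. The members and lists were chosen with earlier results of these data known. Ighm, Ighd and 7 immunoglobulin constant genes of the lists had no probe under those names. Gene symbols and promoters came from RefSeq tables of GRCm38.p6, and promoter windows were matched by symbol for 6 of the 9 genes. Probe coordinates are those of the array files, on mm9.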

Additional observations from a re-analysis of the deposited data

Results flagged for a closer look

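Of 96 groups of 4 arrays examined, over the member probes and the named B lineage probes, 7 (7.29%) held an array whose gap to its nearest neighbour exceeded Dixon's 95% limit as a share of the group's range, where chance gives about 1 in 20. For 2 member probes this was MHCII-low 20435, which read -5.52 for Ms4a1 A_55_P2802151, where the next lowest array read -3.01, and -4.86 for Ebf1 A_55_P2805845, where the next read -3.82. The same array read -0.61 for Fkbp11. MHCII-high 20436 read 1.25 for Cd37 A_55_P2174490, above the other 3. MHCII-low 20442 read -0.44 for Slamf7 and -7.26 for Bcl11a A_52_P82704, and MHCII-low 20439 read -6.27 for Bcl11a A_55_P1958270, values near the background for both Bcl11a probes.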

How the results depend on the processing

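Under 17 alternatives 13 of 14 tested member probes kept 1 direction. The exception was Ebf1 A_55_P2734622, at -0.68 to 1.26 over the 8 fits that left out an array (-0.35 without MHCII-high 20436, -0.07 without MHCII-high 20439). The number of member probes called higher was 2 in the reported fit, 0 with the slide row block and 0 to 2 without single arrays. Over all probes 2154 were called, 1384 with 1 probe per gene, 716 with the slide row block and 892 to 1814 without single arrays. Other mature B cell probes called higher went from 7 to 4 with 1 probe per gene, 2 with the slide row block and 2 to 7 without single arrays. Myeloid-shared B cell probes called higher went from 0 to 1 with normexp, quantile normalization, the series table and the filter on all 8 arrays (0 to 1 without single arrays), and those lower from 2 to 1 with 1 probe per gene and with the slide row block (1 to 2 without single arrays). Plasma cell probes called higher went from 4 to 7 with normexp, and those lower from 1 to 0 with the slide row block. Early B cell probes called higher went from 3 to 1 with the filter on all 8 arrays and 1 to 3 without single arrays. The cause was not tested. Of 77 other tested named probes 72 kept 1 direction. Sdc1 A_52_P479269 gave -0.04 with median scaling and -0.15 to 0.19 without single arrays, and Sdc1 A_65_P20200 -0.20 to 0.30. Bcl11a A_55_P1958270 gave -0.02 with normexp, -0.30 with the slide row block and -0.28 to 0.34 without single arrays, and Bcl11a A_55_P2485639 -0.05 to 0.28. Ighg3 gave 0.38 with the slide row block and -0.41 to 0.38 without single arrays.

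The label numbers were not taken as pairs, because the labels do not say what they mark. Arrays of the same number correlated at 0.0813 to 0.199 in their deviations from the group means. Each MHCII-high array correlated best with the MHCII-low array of its number, a hint of pairing from the data and not from the design. These correlations do not decide whether the numbers are pairs. With the label number as a replicate block, 1246 probes were called over the array, early B cell probes called higher were 1, and 2 member probes were called higher, Jchain at an adjusted p of 0.0139 and Pou2af1 at 0.0177. Dim probes limit what could be seen: 4 of the 15 member probes were below the limit of detection set by the scanner on at least 1 array.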
